A study of Mus musculus with 2 samples.

Results

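The 38 genes described here are a cell cycle module, set beside the cells that use it: 38 of the 55416 genes of the count matrices, made up of Mki67, Top2a and 36 further genes of DNA replication and mitosis. A cell was called dividing when its Mki67 and Top2a UMIs (unique molecular identifiers, which count RNA molecules) summed to 2 or more. By that rule 279 of 10437 kept cells were dividing: 262 of 8194 in the lung library and 17 of 2243 in the muscle library. Because Mki67 and Top2a chose these cells, their values in dividing cells are descriptions. By their known timing, 13 of the genes formed an S list (G1/S and DNA replication) and 21 a G2/M list (G2 and mitosis, without Mki67 and Top2a), and Stmn1 and Neil3 were put in neither.

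The series holds 1 single-cell library of lung and 1 of gastrocnemius muscle, a calf muscle, both from mice of a model that the labels call CAC and from animals labelled TB, neither of which is spelled out there. No treatment, genotype, age or number of mice is given for either library, and muscle samples under antibodies against immune proteins are named in the series' design but not analysed here. Both tissues were cut up and digested by enzymes (Liberase TL, with DNase I), red cells were lysed, and the cells were selected with magnetic beads against the leukocyte protein CD45, and sequenced with a 10x 5′ kit. The libraries shared 64 barcodes, of which 24 were kept and none was dividing. With 1 library per tissue there is no replicate and no test, so every interval below is an exact 95% interval (Clopper-Pearson for a share, Poisson for a level, conditional binomial for a ratio) that covers counting error only.

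A cell that divides copies its DNA in S phase and separates the copies in mitosis, and the genes for the 2 tasks are switched on in turn. E2F factors drive the S genes, among them the MCM helicase that opens the replication origin, the sliding clamp Pcna and the enzymes that make deoxynucleotides. The DREAM and B-MYB-FOXM1 complexes act on the CHR element of later genes, such as the kinase Cdk1, its cyclins and the motors and kinases of the spindle. In lung, resident alveolar macrophages are known to renew themselves locally, activated T cells divide within the tissue, and mature neutrophils have left the cycle.

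Promoters are printed for a few of the genes, as examples of letters in which the S and G2/M lists differ. Of the 38 genes, 33 had an entry in the RefSeq promoter table of build GRCm38.p6, which spans 250 bases before to 50 bases after a gene's start, and Stmn1, Ccna2, Ccne2, Aurkb and Tpx2 had none. The count files use GRCm39, so these coordinates were not joined to any other. Each line gives the 250 bases before the start, 5′ to 3′ on the gene's strand, and capitals mark 3 motifs on either strand: the E2F site TTTNNCGC with C or G as the middle pair, the CHR element TTTGAA, and CCAAT. Mcm5 (chr8:75109259-75109508, plus strand) and Mcm6 (chr1:128359706-128359955, minus strand) encode helicase subunits of the S list, and E2f7 (chr10:110745189-110745438, plus strand) encodes an E2F repressor. Cdk1 (chr10:69352913-69353162, minus strand), Ube2c (chr2:164769679-164769928, plus strand), a ubiquitin-conjugating enzyme of the anaphase-promoting complex, and Mki67 (chr7:135716380-135716629, minus strand), the proliferation antigen, stand for the later genes.
Mcm5: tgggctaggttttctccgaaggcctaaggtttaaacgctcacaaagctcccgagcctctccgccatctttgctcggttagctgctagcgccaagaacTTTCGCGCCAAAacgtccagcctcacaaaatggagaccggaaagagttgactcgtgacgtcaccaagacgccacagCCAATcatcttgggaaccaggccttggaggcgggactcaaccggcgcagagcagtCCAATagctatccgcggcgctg
Mcm6: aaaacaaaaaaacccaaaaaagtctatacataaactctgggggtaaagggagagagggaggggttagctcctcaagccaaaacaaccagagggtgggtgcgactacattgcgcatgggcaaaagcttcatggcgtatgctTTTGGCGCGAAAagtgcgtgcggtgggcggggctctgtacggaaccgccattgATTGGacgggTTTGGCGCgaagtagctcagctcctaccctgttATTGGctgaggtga
E2f7: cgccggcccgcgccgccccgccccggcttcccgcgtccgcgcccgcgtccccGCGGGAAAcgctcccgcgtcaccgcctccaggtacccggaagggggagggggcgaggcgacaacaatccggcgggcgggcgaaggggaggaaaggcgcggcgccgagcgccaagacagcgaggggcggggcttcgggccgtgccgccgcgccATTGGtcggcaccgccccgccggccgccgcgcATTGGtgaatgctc
Cdk1: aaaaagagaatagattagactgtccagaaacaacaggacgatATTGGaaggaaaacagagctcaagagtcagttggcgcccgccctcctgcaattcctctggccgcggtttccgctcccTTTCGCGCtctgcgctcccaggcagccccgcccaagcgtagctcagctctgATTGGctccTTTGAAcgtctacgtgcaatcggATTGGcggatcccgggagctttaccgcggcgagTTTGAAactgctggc
Ube2c: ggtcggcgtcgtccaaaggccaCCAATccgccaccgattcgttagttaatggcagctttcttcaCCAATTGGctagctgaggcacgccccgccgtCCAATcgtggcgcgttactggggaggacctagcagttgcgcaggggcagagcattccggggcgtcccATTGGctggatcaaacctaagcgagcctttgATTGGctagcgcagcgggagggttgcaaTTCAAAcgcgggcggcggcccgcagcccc
Mki67: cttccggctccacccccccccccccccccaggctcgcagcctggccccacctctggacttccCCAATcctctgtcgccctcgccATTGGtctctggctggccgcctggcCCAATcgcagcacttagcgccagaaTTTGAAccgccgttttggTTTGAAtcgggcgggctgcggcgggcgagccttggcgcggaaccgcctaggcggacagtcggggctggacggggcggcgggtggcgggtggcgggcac

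Mcm5 and Mcm6 each carry a run of overlapping E2F matches on both strands, Mcm6 a further E2F match nearer to the start, and neither has the CHR letters. Ube2c and Mki67 have CHR and CCAAT letters and no E2F match, and Cdk1 has all 3 motifs. Over the 300 bases, the E2F letters were in 6 of 12 S genes (50%), 1 of 20 G2/M genes with Mki67 and Top2a counted (5%), and 2.32% of the 27025 genes in the table. The 6 S genes were Pclaf, Clspn, E2f7, Mcm3, Mcm5 and Mcm6, and the G2/M gene was Cdk1. The printed S genes are all among these 6, and the other S genes, such as Pcna, had no E2F match. The printed lines are thus examples and not a sample of the lists. The CHR letters ran the other way, in 1 of 12 S genes (8.33%), 15 of 20 G2/M genes (75%) and 18.1% of all genes. CCAAT was common to both lists, in 10 of 12 S genes (83.3%) and 18 of 20 G2/M genes (90%), against 37.9% of all genes. CHR and CCAAT stood together in 14 of 20 G2/M genes (70%) and in 7.12% of all genes. Birc5, Ccnb1, Cenpe, Bub1 and Mastl were the G2/M genes without the CHR letters in this window. A match is a description of letters and not a bound site.

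Dividing cells made up 3.20% of lung cells (2.83 to 3.60, 262 of 8194) and 0.758% of muscle cells (0.442 to 1.21, 17 of 2243). The cells behind these shares were not alike. The lung library was mostly leukocytes: 6030 of its cells (73.6%) passed a leukocyte gate (at least 2 marker genes of a type), and 56.9% of all its kept cells had a UMI of Ptprc, which encodes CD45. In the muscle library, although it was selected on CD45, only 13.2% of kept cells had a Ptprc UMI, 1649 cells (73.5%) passed a stroma gate (endothelial, fibroblast, mural, Schwann or satellite cells) and 311 passed a leukocyte gate. Among leukocyte-gated cells the dividing share was 3.22% in muscle (1.55 to 5.83, 10 of 311) and 3.13% in lung (2.71 to 3.61, 189 of 6030), so the gap between whole libraries was not seen there. Without neutrophils the shares were 4% (10 of 250) and 4.74% (177 of 3734). Muscle stroma held 6 dividing cells of 1649 (0.364%, 0.134 to 0.790).

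The leukocytes of the libraries differed in depth. Muscle leukocytes had a median of 6862 UMIs and lung leukocytes 2717.5. From 2000 to under 5000 UMIs the dividing share was 3.13% in muscle (0.649 to 8.86) and 1.41% in lung (0.976 to 1.96), and from 5000 to under 10000 it was 3.03% (0.629 to 8.6) and 5.67% (4.29 to 7.33), with intervals that overlap in both ranges. Among leukocytes of 10000 UMIs or more, 4 of 93 muscle cells (4.30%, 1.18 to 10.6) and 99 of 610 lung cells (16.2%, 13.4 to 19.4) were dividing, and only in this range do the intervals not overlap. Thinned to 1000 UMIs, with at least 1 Mki67 or Top2a UMI counted, the shares were 2.60% in muscle (1.13 to 5.05) and 3.03% in lung (2.59 to 3.52). Of the 189 dividing lung leukocytes, 136 had at least 3 other G2/M genes detected, against 4 of the 10 in muscle. In the muscle macrophages, 1 of the 4 dividing cells held 43 S and 25 G2/M UMIs, while the other 3 held 0 and 1 between them.

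The rule of 2 UMIs cut through a falling tail of counts. In lung, 7520 cells had no Mki67 or Top2a UMI, 412 had 1, 92 had 2, 39 had 3 and 100 had 6 or more, and in muscle the numbers were 2199, 27, 5, 4 and 5. Of the 262 dividing lung cells 150 (57.3%) had both genes, 68 only Mki67 and 44 only Top2a. The genes that the rule did not use were dense in these lung cells, with a median of 13 of the other 36 genes detected against 1 in other lung cells, and sparse in the 17 muscle cells, with a median of 2 against 1. The call itself rests on few molecules in both libraries, with a median of 3 Mki67 and Top2a UMIs in dividing muscle cells and 3.5 in dividing lung cells. Of cells not called dividing, 237 in lung (2.89%) and 58 in muscle (2.59%) had at least 3 S genes, which the Mki67 and Top2a rule leaves out.

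In lung the dividing cells were spread over many lineages. Among the larger resolved types, alveolar macrophages, T cells, macrophages and epithelial cells stood high. Neutrophils, the largest gate, gave 12 dividing cells of 2296 (0.523%, 0.270 to 0.911), and this low share serves as the reference below. It is not a measurement of free RNA or of a type wholly outside the cycle. Of the 12 cells 7 had at least 3 other G2/M genes, and some held many other genes of the module, up to 29. B cells lay near it, with 5 of 658 (0.760%, 0.247 to 1.76). The smaller gates of cDC2, cDC1 and plasma cells (86, 24 and 31 cells) also had intervals above that of neutrophils. After thinning, with at least 1 UMI counted, that of cDC1 still did, and those of cDC2 and plasma cells overlapped it. No dividing cell was found among 118 monocytes or 64 natural killer cells. Where a count was 0, the limit given is that of 3 cells of the total, 2.54% and 4.69% here, and the exact 95% intervals reach 3.08% and 5.60%.

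**Figure D1:**
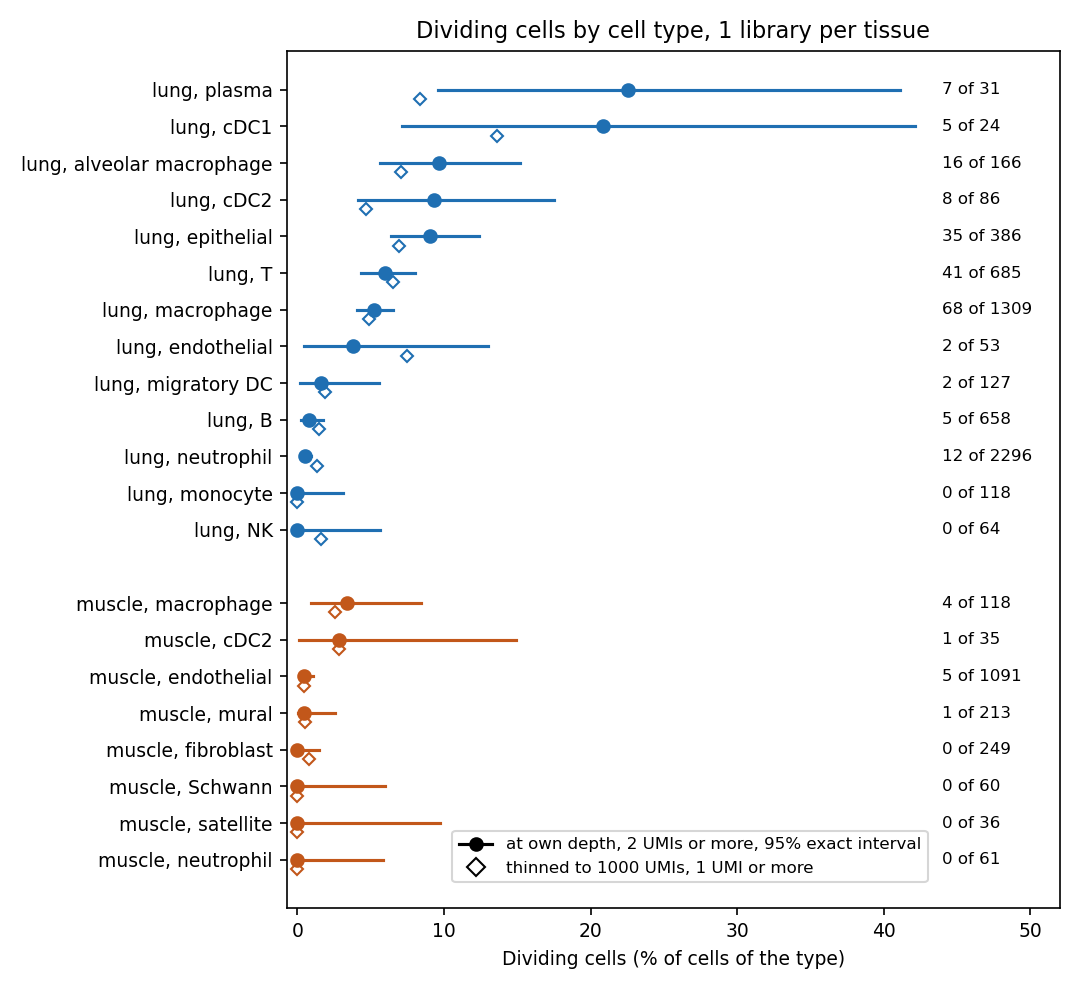
Share of dividing cells (x axis, percent of the cells of a type) for 13 lung and 8 muscle types (y axis); filled circles with bars give the share at each cell's own depth with its exact 95% interval, open diamonds the share with at least 1 Mki67 or Top2a UMI after each cell was thinned to 1000 UMIs, and the text at the right the cell counts. Lung T cells, macrophages, alveolar macrophages and epithelial cells lie above lung neutrophils (0.523%) on both measures, and muscle endothelial cells lie at 0.458%.

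Of 685 T cells (gated on Cd3 and T cell receptor constant genes) 41 were dividing, a share of 5.99% (4.33 to 8.03). The share was 7.6% in cells with a Cd8 UMI and none of Cd4 or Foxp3 (13 of 171, 4.11 to 12.6), 6.77% in cells with a UMI of Foxp3, the regulator of regulatory T cells, and none of Cd8 (9 of 133, 3.14 to 12.5), and 4.35% in other cells with Cd4 and no Cd8 (5 of 115, 1.43 to 9.85). The 3 intervals overlap, so these cells give no order of the T subsets. A share of 21.4% (6 of 28, 8.30 to 41.0) came from cells with Cd8 together with Cd4 or Foxp3, and 3 of those 6 dividing cells also passed the gate of another lineage.

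Checkpoint receptors mark T cells that have met antigen, and the dividing Cd8 cells were split by a UMI of Pdcd1, Havcr2, Lag3, Tigit or Ctla4. With a receptor UMI 9 of 96 cells were dividing (9.38%, 4.38 to 17.1), and without one 4 of 75 (5.33%, 1.47 to 13.1). The intervals overlap, and the cells with a receptor were deeper, at a median of 4185 against 3204 UMIs. After each cell was thinned to 1000 UMIs, receptor status was read anew from the thinned UMIs, which moved cells to the group without a receptor. With at least 1 Mki67 or Top2a UMI counted, the shares were then 9.09% (6 of 66) and 8.65% (9 of 104). With receptor status kept from each cell's own depth, the thinned shares were 8.33% (8 of 96, 3.67 to 15.8) and 4.05% (3 of 74, 0.844 to 11.4). These intervals overlap too. Receptor by receptor, dividing cells were 6 of 68 with Pdcd1 (8.82%) and 7 of 103 without it (6.8%), and 3 of 48 with Tigit (6.25%) and 10 of 123 without it (8.13%).

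Of 1309 macrophages (gated on C1q and related genes) 68 were dividing, 5.19% (4.06 to 6.54). Macrophages with at least 2 of Mmp12, Gpnmb, Trem2 and Spp1, genes of lipid-handling and matrix-degrading macrophages, had a share of 7.85% (50 of 637, 5.88 to 10.2) and the others 2.68% (18 of 672, 1.60 to 4.2). Their intervals do not overlap, but neither do their depths compare, at medians of 8104 and 1638.5 UMIs. Thinned to 1000 UMIs, the shares with at least 1 UMI were 5.21% and 4.40%, with intervals that overlap (3.57 to 7.31 and 2.67 to 6.78). Alveolar macrophages, gated on their own markers, gave 16 of 166 (9.64%, 5.61 to 15.2). Of those markers, Ear2 and Car4 were each in 84.3% of the cells. Siglecf was in 30.7%, Fabp1 in 24.7%, Marco in 22.9% and Krt79 in 14.5%. The label therefore rests mainly on Ear2 and Car4.

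Dendritic cells were few in each subset. Of the cDC1, which cross-present antigen, 5 of 24 were dividing (20.8%, 7.13 to 42.2), and of the cDC2 8 of 86 (9.30%, 4.10 to 17.5). Migratory dendritic cells, which carry Ccr7 and Fscn1, gave 2 of 127 (1.57%, 0.191 to 5.57). The intervals of cDC1 and migratory cells do not overlap, with the cDC1 value resting on 5 cells, while those of cDC1 and cDC2 overlap. After thinning, with at least 1 UMI counted, cDC1 were at 13.6% (2.91 to 34.9), cDC2 at 4.71% (1.3 to 11.6) and migratory cells at 1.87% (0.227 to 6.59), and all 3 intervals overlap. Plasma cells, the source of antibody, gave 7 of 31 (22.6%, 9.59 to 41.1) at the greatest depth of any gate (median 16516 UMIs), and 2 of 24 (8.33%) after thinning.

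Of 386 epithelial cells 35 were dividing, 9.07% (6.40 to 12.4). The dividing epithelial cells held 1432 CPM of Epcam and 3548 CPM of the keratin Krt8 (CPM, counts per 1000000 UMIs of the summed cells), and no UMI of Sftpc, Sftpb or Sftpa1 of alveolar type 2 cells or of Scgb1a1 of club cells. Foxj1, of ciliated cells, was at 3 counts. The label epithelial therefore rests on keratins and Epcam and not on a named lung subtype. Among epithelial cells of 10000 UMIs or more that were not dividing, Sftpc was at 1 count too, and Scgb1a1 at 4155 CPM was confined to 3.70% of 81 cells. Ptprc was at 15.9 CPM in the dividing cells. Of the 35 dividing epithelial cells 17 (48.6%, 31.4 to 66.0) also passed another lineage's gate, against 63 of 351 others (17.9%), and without all such cells the share was 5.88% (18 of 306). The same overlap was 9 of 41 against 64 of 644 in T cells (22.0% and 9.94%) and 10 of 68 against 67 of 1241 in macrophages (14.7% and 5.40%), and the part of 2 cells in 1 droplet in these shares was not tested.

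Depth moved with the dividing share in lung T cells, macrophages and neutrophils. In T cells no cell was dividing among 24 under 1000 UMIs or 124 from 1000 to under 2000, and the share was 3.77% from 2000 to under 5000, 19.8% from 5000 to under 10000 and 35.3% (6 of 17) at 10000 or more. In macrophages it was 0.355% under 1000 UMIs, and in the last 3 ranges 1.66%, 5.97% and 15.7%. Neutrophils stayed at 0.606% and 0.559% from 2000 to under 5000 and from 5000 to under 10000 UMIs and reached 12.9% (4 of 31) at 10000 or more. From 5000 to under 10000 UMIs the intervals of T cells (12.4 to 29.2) and macrophages (3.64 to 9.17) do not overlap that of neutrophils (0.0141 to 3.07). From 2000 to under 5000 UMIs macrophages (0.454 to 4.19) and neutrophils (0.244 to 1.24) overlap and T cells (2.17 to 6.06) lie above neutrophils, and at 10000 or more all 3 overlap. Epithelial cells had no dividing cell among 17 from 5000 to under 10000 UMIs and 29 of 110 (26.4%) at 10000 or more. Dividing lung cells had a median of 10355.5 UMIs and all kept lung cells 2286, and a dividing cell holding more RNA and a deep droplet being called more often cannot be told apart here. After thinning, the shares with at least 1 UMI were 6.51% in T cells, 4.87% in macrophages, 7.09% in alveolar macrophages, 6.93% in epithelial cells and 1.36% in neutrophils (0.913 to 1.95), and the intervals of the first 4 do not reach that of neutrophils. Thinned at 2 UMIs, alveolar macrophages gave 0 of 141 (0 to 2.58), which overlaps neutrophils (0.0469%, 0.00119 to 0.261). At that setting T cells, macrophages and epithelial cells still had intervals above that of neutrophils.

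**Figure D2:**
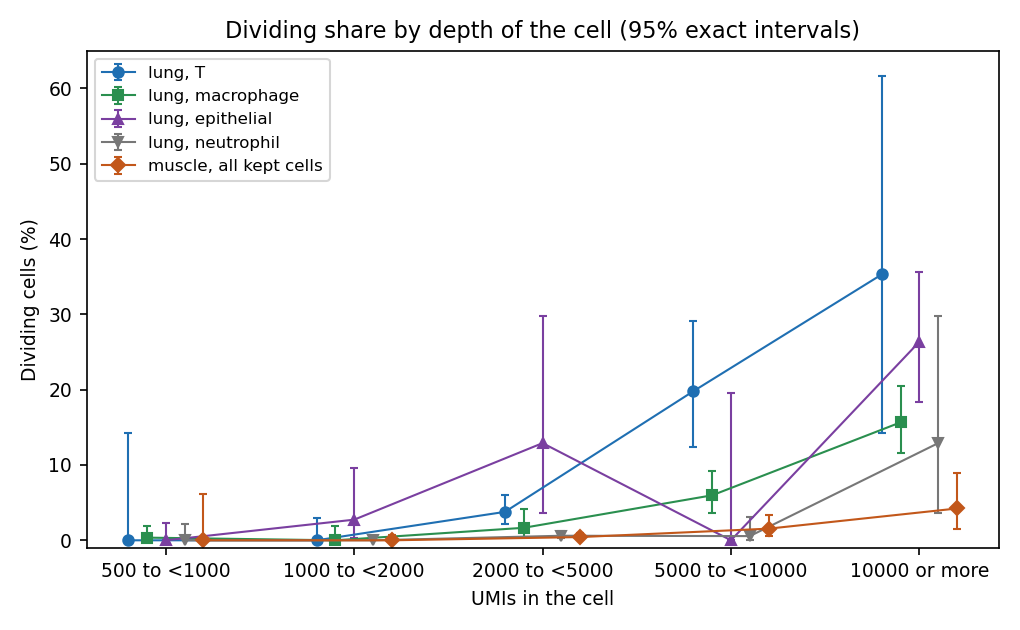
Share of dividing cells (y axis, percent) in 5 ranges of UMIs per cell (x axis) for lung T cells, macrophages, epithelial cells and neutrophils and for all kept muscle cells, with exact 95% intervals; lines join the ranges of a type. Lung T cells rise from 3.77% in the third range, from 2000 UMIs, to 19.8% in the fourth, from 5000 UMIs, while neutrophils stay under 1% in both ranges.

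In muscle the dividing cells were few in every gate. Endothelial cells, the largest gate, gave 5 of 1091 (0.458%, 0.149 to 1.07), mural cells of the vessel wall 1 of 213 (0.469%) and macrophages 4 of 118 (3.39%, 0.931 to 8.45). None was found among 249 fibroblasts, 60 Schwann cells or 36 satellite cells, the stem cells of muscle, for which 3 cells of the total would be 1.20%, 5% and 8.33% and the exact intervals reach 1.47%, 5.96% and 9.74%. Muscle macrophages and lung macrophages (5.19%, 4.06 to 6.54) had overlapping intervals.

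Across all lung cells the most abundant of the 38 genes was Hmgb2, a chromatin protein, at 212 CPM, and next came the clamp Pcna at 80.4 and the tubulin-binding Stmn1 at 64.7. Ube2c stood at 39.0 CPM, Top2a, which untangles DNA, at 35.8, Mki67 at 34.9, Pclaf, a partner of Pcna, at 33.8, Mcm6 at 30.3 and Birc5, of the chromosomal passenger complex, at 27.4. The lowest were Ccne2, a G1/S cyclin, at 2.14 and Mastl, a mitotic entry kinase, at 2.29. A 5′ UMI is counted once per molecule whatever the gene's length, so these levels compare molecules.

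Summed over the 38 genes, cDC1 led with 3525 CPM, then came T cells with 1519, epithelial cells with 1456, cDC2 with 1272, endothelial cells with 1241 and alveolar macrophages with 1234. Macrophages stood at 787, neutrophils at 507 and monocytes at 233 CPM. In cDC1 the highest were Hmgb2 at 576 CPM, Stmn1 at 331, Pclaf at 326, Top2a at 255, Mki67 at 206 and Ube2c at 196. Few dividing cells carried the highest sums: in cDC1 5 cells held 153 of the 169 S and 291 of the 325 G2/M UMIs, and in lung endothelial cells 2 cells held 81.5% of the gate's counts of the module. Among T subsets, Cd8 cells held 1726 CPM in sum and Foxp3 cells 1449, and Foxp3 cells were the T subset in which an Mcm gene led the S list, with Mcm6 at 156 CPM against 86.2 in Cd8 cells. Pcna was the highest S gene in each of the 13 lung gates of the share plot except cDC1 and plasma cells, where Pclaf led.

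**Figure D3:**
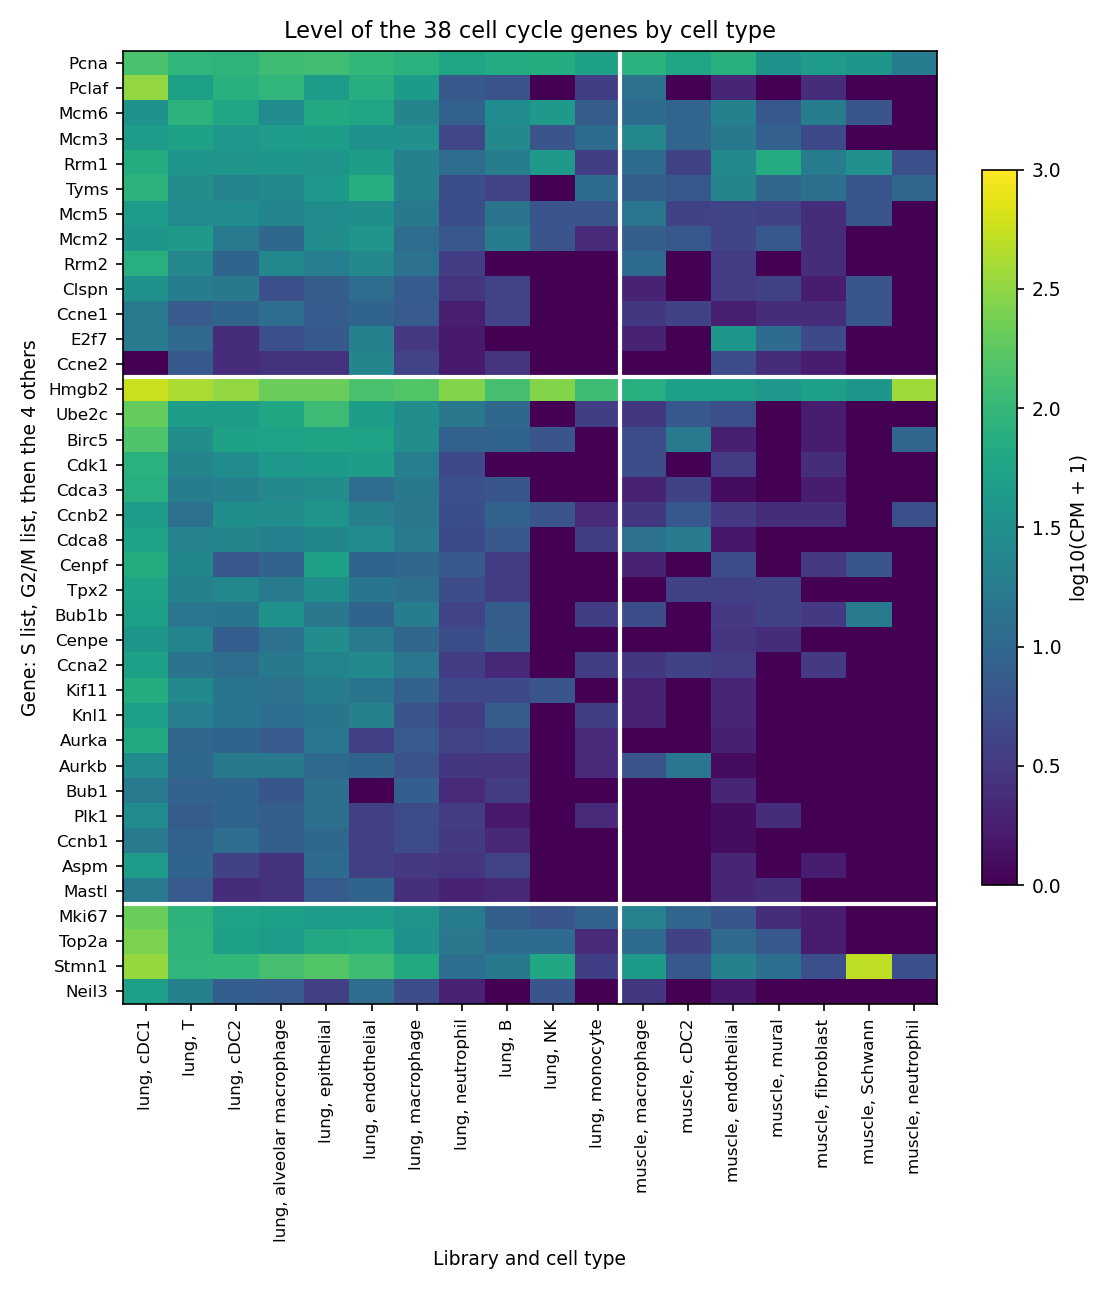
Level of each of the 38 genes (rows: S list, G2/M list, then Mki67, Top2a, Stmn1 and Neil3) in 11 lung and 7 muscle cell types (columns), as log10(CPM + 1) of summed counts, dark for low and yellow for high. Hmgb2 and Pcna are bright in nearly every column, the lung cDC1 column is bright throughout, and muscle Schwann cells stand out in Stmn1 alone (521 CPM).

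Within a lung type, dividing cells held more RNA of the rest of the module. Mki67 and Top2a are themselves expressed most in G2 and mitosis, so choosing cells by them favours G2/M genes over S genes, and no reading is made of that contrast. A gene was called by a rule of size, not a test: a ratio of 4 or more, an interval that leaves out 2, at least 30 counts on the higher side and 10 over both. By it 23 of 38 genes were higher in dividing T cells (0.867% of all genes were), 26 of 38 in dividing macrophages (0.755% of all genes) and 28 of 37 measured in dividing epithelial cells (1.16% of all genes). Mki67 and Top2a are among these and chose the cells, so nothing is read from the counts. The median log2 ratio of dividing over other cells was 3.41 for S and 5.43 for G2/M genes in T cells, 3.01 and 4.31 in macrophages, and 2.46 and 4.37 in epithelial cells, beside 0.08, 0.06 and 0.03 for all genes. Mki67 was at 703 CPM in dividing and 9.33 in other T cells, 243 and 8.13 in macrophages, and 126 and 2.97 in epithelial cells.

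The genes that passed the rule in all 3 types were Mki67, Top2a, Birc5, Cdk1, Tyms, Rrm2, Pclaf, Ube2c, Cdca8, Cdca3, Cenpf, Cenpe, Knl1, Mcm3, Hmgb2, Tpx2 and Kif11. Rrm2, a subunit of ribonucleotide reductase, was at 208 CPM in dividing and 0.466 in other T cells, while Rrm1, the other subunit, was at 208 and 14.9. Pclaf was at 420 and 3.27 CPM in T cells, 283 and 10.8 in macrophages, and 124 and 6.32 in epithelial cells. Cenpf, a kinetochore protein, was at 190 and 1.87, 68.8 and 0.998, and 146 and 2.23.

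Pcna, the most abundant S gene, was common outside dividing cells too. It was at 301 CPM in dividing and 68.6 in other T cells, 219 and 64.3 in macrophages, and 182 and 87.7 in epithelial cells, and it passed the rule only in T cells. Mcm6 was at 272 and 62.1 in T cells, 89.9 and 13.5 in macrophages and 118 and 39.0 in epithelial cells. Stmn1 was at 289 and 86.2 in epithelial cells, a smaller gap than in T cells (636 and 24.7). Ccne1, Ccne2, E2f7 and Mastl passed in none of the 3 types, where each had at most 22 counts in the dividing cells, under the 30 that the rule asks for.

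The other genes of the pathway were counted in the same way, beside 0.867%, 0.755% and 1.16% of all genes. Of other S genes 11 of 34 measured were higher in dividing T cells, 14 of 37 in macrophages and 13 of 39 in epithelial cells, and of other G2/M genes 12 of 28, 14 of 32 and 23 of 34. Tk1, the thymidine kinase, and Cks1b, a Cdk1 partner, passed in all 3 types. None of the 6 D cyclins and their kinases and none of 5 CDK inhibitors measured passed in any of the 3, with medians between 0.31 and 0.85, but lists this short would give about none at those shares of all genes. A further list held 13 genes of E2F factors, repressors and the DREAM and B-MYB-FOXM1 complexes. Of these 2 passed in T cells, 0 in macrophages and 2 in epithelial cells, where they were E2f8 and Foxm1. In T cells E2f2 was one, at 164 against 15.9 CPM. E2f8 is also counted among the other S genes.

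The S genes gave 33.5% (32.6 to 34.3) of the S and G2/M UMIs in dividing lung cells and 42.3% (41.3 to 43.2) in the others, a gap that the choice by Mki67 and Top2a favours. Dividing T cells were at 33.3% (31.2 to 35.5), dividing epithelial cells at 31.9% (30.4 to 33.4), dividing cDC2 at 33.1% (29.0 to 37.5) and dividing macrophages at 38.7% (36.9 to 40.6). The macrophage interval lay above those of T and epithelial cells, but UMIs of 1 cell are not independent and the intervals ignore this. No difference between these types is therefore read from it. Over dividing cells with at least 5 S plus G2/M UMIs, the median S share was 36.0% in macrophages, 35.7% in T cells and 31.7% in epithelial cells. Cell by cell, of the dividing cells with at least 5 such UMIs, 19 of 30 T cells, 35 of 56 macrophages and 21 of 34 epithelial cells had more G2/M than S UMIs. Dividing neutrophils were at 9.52% (7.28 to 12.2), with 0 of 7 cells mostly S, and Hmgb2 gave 290 of their 542 G2/M UMIs. The order of macrophages, T cells and epithelial cells was not kept by the other genes of the 2 phases, which gave 56.5%, 57.5% and 58.7% over all cells of those types.

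Single genes weigh heavily in these shares. Hmgb2 made up 32.5% of the G2/M UMIs in dividing lung cells and 68.2% in the others, and Pcna 17.8% and 41.7% of the S UMIs. In dividing cells Pclaf (21.4%) led the S list, and Ube2c (11%) and Birc5 (8.28%) followed Hmgb2 in the G2/M list.

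**Figure D4:**
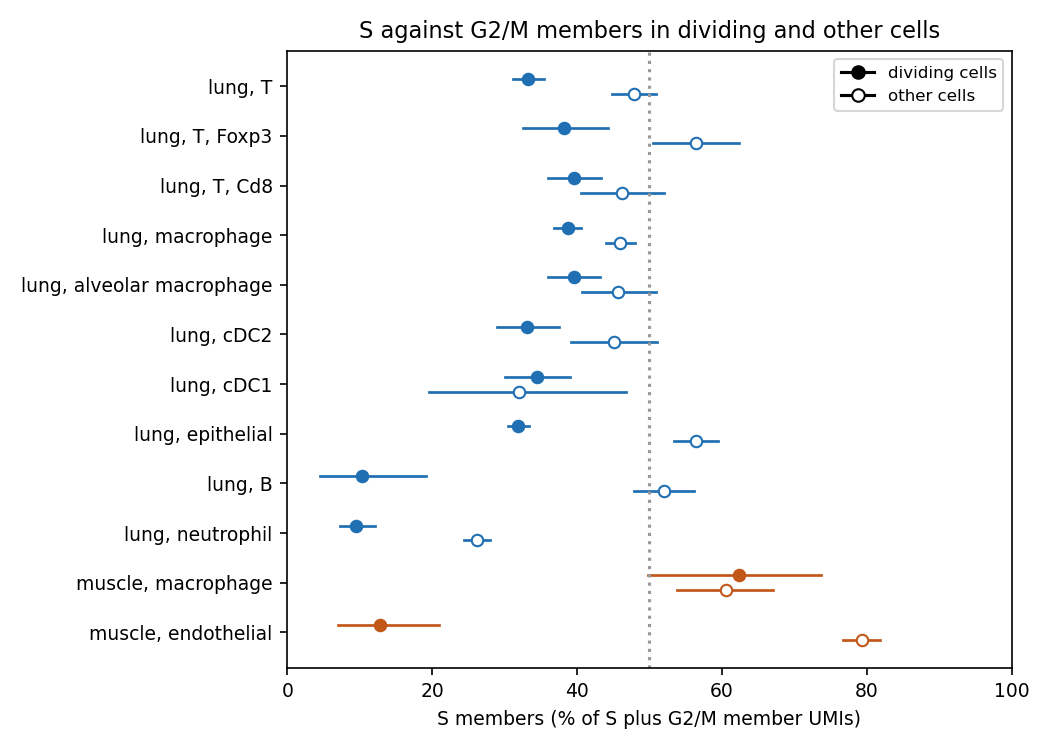
S genes as percent of S plus G2/M UMIs (x axis) in dividing (filled) and other cells (open) of 10 lung and 2 muscle types (y axis), with exact 95% intervals and a dotted line at 50%. Dividing lung cells lie left of the line, and muscle endothelial cells that are not dividing lie farthest right at 79.3%.

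Muscle stroma leaned to the S list. S genes gave 71.1% (68.7 to 73.3) of the UMIs in the stroma gates, 49.1% (45.6 to 52.7) in muscle leukocytes and 63.7% (61.8 to 65.6) in the whole muscle library. They gave 73.1% (70.4 to 75.8) in endothelial cells, 79.3% (76.6 to 81.8) in the 1086 of them under 2 Mki67 and Top2a UMIs, and 12.9% (7.02 to 21.0) in the 5 that were dividing. The lean was not particular to muscle: lung endothelial cells that were not dividing were at 67.2% (54.0 to 78.7, 51 cells). Nor was it common to all muscle gates, since satellite cells were at 37.5% (18.8 to 59.4) and neutrophils at 7.53% (3.08 to 14.9). In muscle endothelial cells Pcna (79.5 CPM) was the highest S gene, seen in 215 of 1091 cells.

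E2f7 was high in a gate with few dividing cells. In muscle endothelial cells it was at 37.7 CPM (139 counts), and only 4 of these counts were in dividing cells. It was seen in 112 of 1091 cells (10.3%, 8.53 to 12.2), and this gate held 80.8% of the library's E2f7 counts and 39.5% of its UMIs. Lung endothelial cells gave 19.2 CPM from 7 counts, 5 of them in the 2 dividing cells, and the log2 ratio of muscle over lung was 0.98 (−0.11 to 2.32), so no tissue difference was detectable. In lung T cells E2f7 was at 81.9 CPM in dividing and 0.466 in other cells.

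3 more genes were high where few or no cells divided. Stmn1 was at 521 CPM in muscle Schwann cells (98 counts, 34 of 60 cells), none of which was dividing. Hmgb2 was at 279 CPM in lung neutrophils (1775 counts, 904 of 2296 cells), with 290 counts in the 12 dividing cells and 135 in 1 cell, and at 368 CPM in muscle neutrophils (34 of 61 cells), none of them dividing. Rrm1 was at 69.3 CPM in muscle mural cells (48 counts in 24 of 213 cells), with no count in the 1 dividing cell. In these types the level of Hmgb2, Stmn1 or Rrm1 was thus held mostly by cells outside the call.

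Types found in both tissues were compared gene by gene with the same rule of size. In macrophages all 38 genes had enough counts. None was higher in muscle (0.608% of all genes were), and 5 were lower (1.4% of all genes): Birc5, Ube2c, Cdca3, Cenpe and Tpx2, all of the G2/M list. Birc5 was at 4.06 CPM in muscle and 29.2 in lung macrophages (log2 ratio −2.85, −4.73 to −1.47), Ube2c at 2.03 and 28.2 (−3.79, −6.85 to −1.92) and Cdca3, a ligase adaptor of mitotic entry, at 1.02 and 15.5 (−3.94). Cenpe, a kinetochore motor, and Tpx2, a spindle assembly factor, had no count in muscle against 8.84 and 11.9 CPM, which with a floor of 3 counts in the muscle macrophages gives log2 ratios of at most −1.54 and −1.96. Pcna was at 82.2 and 81.9 CPM, a difference within counting error (0.01, −0.35 to 0.34), and Mki67 was at 20.3 and 34.9 (−0.78, −1.51 to −0.13). The median was −1.08 for S and −3.10 for G2/M genes (−0.97 and −1.96 with genes at 0 set to the floor), beside −0.06 for all genes.

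In cDC2 24 genes were measured, none was higher in muscle (0.523% of all genes) and 6 were lower (1.82% of all genes): Top2a (−4.14), Stmn1 (−4.08), Pclaf (0 against 78.9 CPM, at most −3.22), Ube2c (−3.06), Mcm6 (−2.78) and Hmgb2 (−2.76). Hmgb2 was at 48.0 CPM in the 35 muscle and 325 in the 86 lung cells. The gate's own markers also differed, with Cd209a in 97.1% of muscle and 51.2% of lung cells and Kmo in 31.4% and 65.1%. Whether the 2 gates hold the same kind of cell was not tested. In endothelial cells 27 genes were measured, none was higher in muscle (2.27% of all genes), and 1 was lower (1.05% of all genes), Stmn1 at 20.1 against 115 CPM (−2.52, −3.08 to −1.94). Neutrophils had 32 measured and none called (0.325% of all genes higher, 1.58% lower), and fibroblasts 5 measured and none called (4.08% higher, 1.83% lower). Of the 32 in neutrophils 25 had no muscle count, and 3 counts in the 61 muscle cells equal 13.3 CPM. At that depth the rule could call few of them lower, so no likeness of the tissues is read from this.

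Much of the module's RNA in the lung types lay in their dividing cells. Dividing cells held 56.2% of the module's counts in lung macrophages, 66.9% in cDC2 and 81.5% in endothelial cells, where 2 cells carried 369 counts. In the same types of muscle they held 30.4%, 6.25% and 13%. These counts include Mki67 and Top2a, which chose the cells, so part of each share was fixed by the rule. With dividing cells left out of both libraries, 2 genes (Birc5 and Ube2c) of 30 measured were lower in muscle macrophages, none of 10 in cDC2 and none of 12 in endothelial cells. The median log2 ratio with genes at 0 set to the floor was then −0.46 in macrophages, −1.44 in cDC2 and 0.16 in endothelial cells. It was −1.11, −2.31 and −2.81 with dividing cells kept. The 2 sets of medians rest on different genes, 38, 24 and 27 measured with dividing cells and 30, 10 and 12 without. The part of the dividing cells in the tissue gap was therefore not tested.

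**Figure D5:**
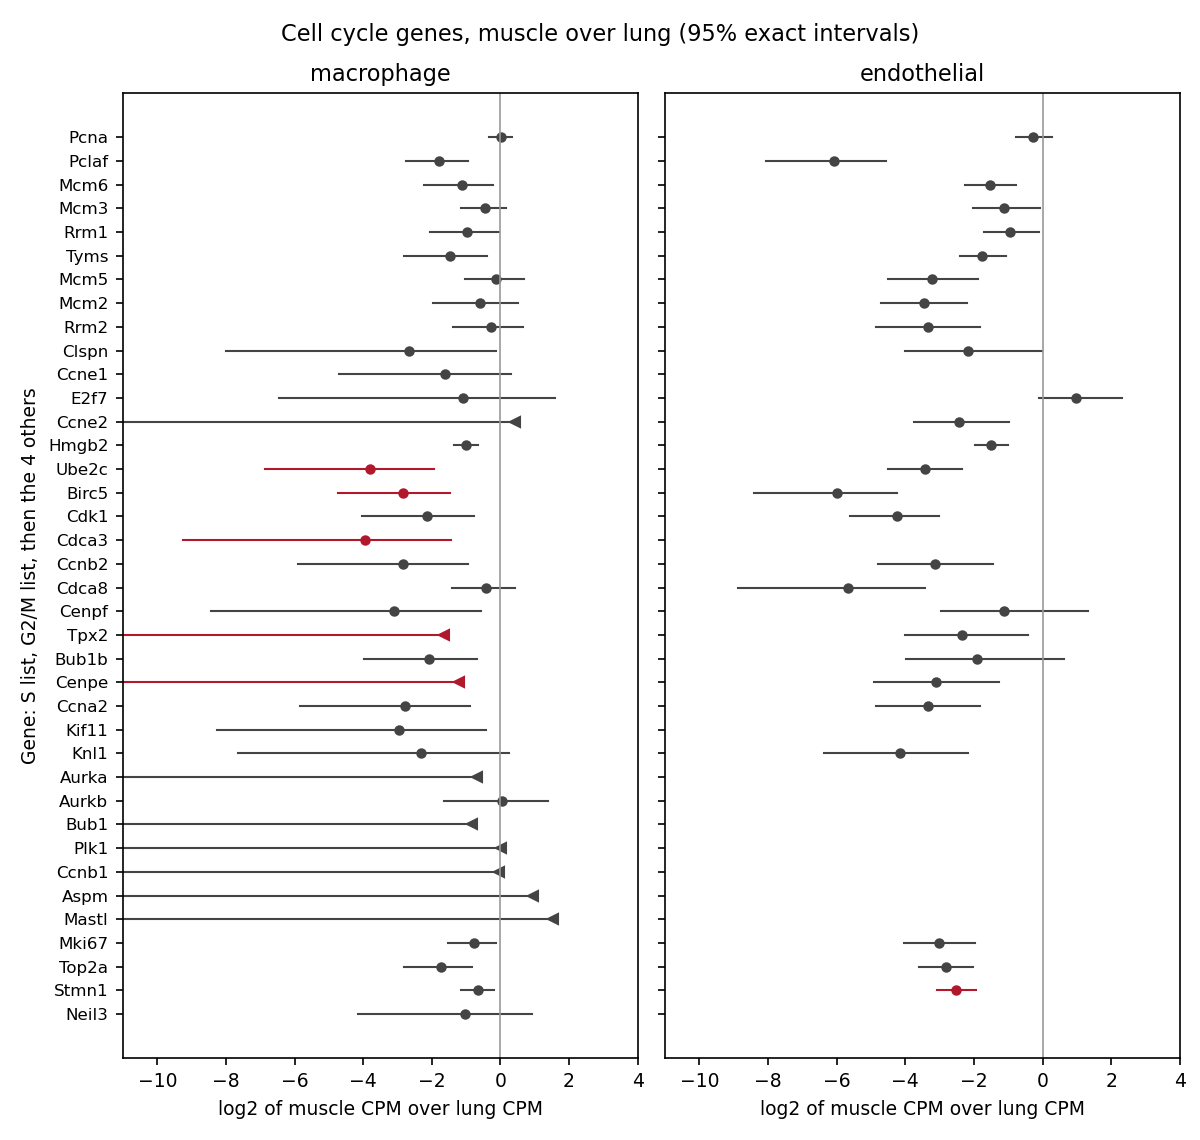
log2 of the muscle over the lung CPM (x axis) for the genes with enough counts (y axis) in macrophages (left) and endothelial cells (right), with exact 95% intervals; triangles mark genes with no muscle count, drawn at the upper end of the interval, and red marks genes past the rule of size. In macrophages Pcna lies at 0.01 and the 5 red genes are of the G2/M list; in endothelial cells E2f7 lies right of 0 and Stmn1 is red.

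D cyclins with their kinases, CDK inhibitors and growth drivers were counted with the same rule in the types of both tissues, beside the shares of all genes given for each type above. In macrophages none of 6, 5 and 4 measured was called. In cDC2 2 of 6 D cyclin and kinase genes were lower in muscle, Ccnd2 and Cdk6, and none of 3 inhibitors or 4 growth drivers was called. In endothelial cells 1 of 6 D cyclin and kinase genes was higher in muscle and 2 were lower. Ccnd1 was at 12.8 CPM in muscle and 186 in lung (−3.87), Ccnd2 at 96.0 and 21.9 (2.13) and the kinase Cdk6 at 23.9 and 98.6 (−2.05). Of 6 inhibitors there 1 was higher, Cdkn1c (p57) at 126 CPM in muscle with 1 count in lung, and of 5 growth drivers 1, Myc (2.32). In fibroblasts 1 of 7 inhibitors was higher, Cdkn1c at 293 CPM with no count in lung (log2 ratio of at least 4.84), and 1 was lower, Cdkn2b (−5.72). In neutrophils 1 of 4 inhibitors was higher, Cdkn2d at 373 against 88.4 CPM (2.08). In these comparisons, tissue, digestion and library cannot be told apart.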

How the data were processed

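The files are 10x matrices of UMI counts, 1 per library; the authors made these counts with Cell Ranger 7.0.1 against GRCm39, per the submitters' processing notes, and deposited them as whole numbers. Muscle held 5547 barcodes and 14056163 UMIs, lung 8481 barcodes and 34751225 UMIs. Barcodes with at least 200 genes and at most 10% mitochondrial UMIs were kept (medians of 3106 and 2286 UMIs in muscle and lung), and no doublets were removed in the main values. A cell was gated to a type by at least 2 markers of it, and by 2 times the marker UMIs of any other passing type. Cells without such a lead were set apart as mixed or unresolved, except that T with natural killer markers counted as T and B with plasma markers as plasma. S100a8, S100a9, Apoe, Xbp1, Wdfy4, Mbp, Chil3, Plac8 and Ly6c2 were left out of the gates because other types held them too. Summed counts were scaled to CPM. Thinning drew 1000 UMIs per cell without replacement and left out shallower cells (1585 in lung, 58 in muscle). Doublet scores for an alternative came from 45 neighbours among cells and simulated doublets, with 0.8% removed per 1000 barcodes: 556 lung cells, 29 of them dividing, and 100 muscle cells, 1 of them dividing.

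With 1 library per tissue no test was run. The members, the gene lists and the alternatives were chosen with earlier results of these data known, and the gates were set on marker genes after a first count of dividing cells by type had been seen. All members are described. Named with full values are Mki67, Top2a, the 3 S and 3 G2/M genes with the most lung UMIs, the extremes in a type and each gene past the rule of size between libraries, and of other lists at most 5 genes past that rule. E2f7, Stmn1, Hmgb2 and Rrm1 outside division, and the epithelial and neutrophil genes, were named after their values were seen. Python 3.11.15, numpy 2.4.6, scipy 1.17.1, pandas 2.3.3 and scikit-learn 1.9.0 were used.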

Additional observations from a re-analysis of the deposited data

How the results depend on the processing

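No paired analysis was possible because each tissue has 1 library and the labels give no replicate numbers. No gene count changed direction. For the libraries, leukocytes, T cells, macrophages, epithelial cells and muscle endothelial cells, 56 of 96 recomputed dividing shares stayed within the interval of the values above. For the same groups without the leukocytes, 16 of 42 S shares did. Counts of lower genes in muscle were recomputed for macrophages, cDC2, endothelial cells and neutrophils, and 16 of 20 stayed within 1.5 times. Neutrophils had no gene called lower to begin with, so their counts had little room to move. The S share crossed 50% under some alternatives below in lung, T cells, macrophages, epithelial cells, the muscle library and muscle endothelial cells, so which phase list leads is not stable there.

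At 1 UMI the dividing share was 8.23% in lung, 1.96% in muscle, 8.31% and 6.75% in lung and muscle leukocytes, 15.5% in T cells, 11.8% in macrophages, 15.5% in epithelial cells and 1.47% in muscle endothelial cells. At 3 UMIs it was 2.07% in lung, 2.16% in lung leukocytes, 4.23% in T cells and 3.67% in macrophages. By 3 other G2/M genes detected it was 4.61%, 4.36%, 8.40% in macrophages and 16.8% in epithelial cells. Thinned to 1000 UMIs at 2 UMIs it was 0.590% in lung, 0.183% in muscle, 0.532% and 0.649% in lung and muscle leukocytes, 1.97% in T cells, 0.974% in macrophages and 2.16% in epithelial cells. With at least 500 genes it was 3.84% in lung, 6.62% in macrophages and 15.8% in epithelial cells, and with gates of 3 markers 3.75% in lung leukocytes, 7.03% in macrophages and 13.1% in epithelial cells. In muscle it was 1.26% at no more than 5% mitochondrial UMIs and 0.403% with no such limit.

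These alternatives were chosen after seeing the data. In cells of 10000 UMIs or more the share was 17.9% in lung, 4.23% in muscle, 16.2% in lung leukocytes, 35.3% in T cells, 15.7% in macrophages, 26.4% in epithelial cells and 4.76% in muscle endothelial cells. Without cells that passed another lineage's gate it was 2.58% in lung and 5.88% in epithelial cells, and the S share in epithelial cells was 41.7%. Without E2f7 the S share was 61.1% in muscle and 69.2% in muscle endothelial cells. Without dividing cells the counts of lower genes in muscle were 2 in macrophages, 0 in cDC2 and 0 in endothelial cells.

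The S share over all cells of a group was 37.5% in lung, 63.7% in muscle, 38.6% in T cells, 42.1% in macrophages, 37.3% in epithelial cells and 73.1% in muscle endothelial cells. Without Pcna and Hmgb2 it was 44.5%, 76.9%, 53.0% in T cells, 46% in macrophages and 81.6% in muscle endothelial cells. With other S and G2/M genes it was 56.2%, 68.6%, 57.5%, 56.5% and, in epithelial cells, 58.7%. In dividing cells only it was 33.5%, 43.7%, 33.3%, 38.7%, 31.9% and 12.9%. As a mean over cells with 5 or more such UMIs it was 41.4%, 60.9%, 42.8%, 44.6%, 45.8% and 78.1%, and with the highest doublet scores removed it was 76.3% in muscle endothelial cells. With gates of 3 markers 8 genes were lower in muscle macrophages. The causes were not tested.

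The depth of muscle leukocytes and the 17 dividing muscle cells limit every muscle share, and shares of 24 to 31 cells (cDC1, plasma cells) have wide intervals.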

Other observations

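Within lung neutrophils the dividing share was higher in the few cells with RNA of the granule genes Ngp or Camp. Most dividing neutrophils had no Ngp UMI (8 against 4) and most had no Camp UMI (9 against 3). Of 82 neutrophils with a UMI of Ngp, a gene of immature neutrophils, 4 were dividing (4.88%, 1.34 to 12.0), against 8 of 2214 without one (0.361%, 0.156 to 0.711). With a UMI of Camp, which encodes a granule peptide, 3 of 43 were dividing (6.98%) and without one 9 of 2253 (0.399%). The medians were 3180 UMIs with Ngp and 2233.5 without, and the part of depth was not tested. The genes were chosen after their values were seen.

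Barcodes that the filters left out also held dividing cells, mostly in lung: 13 of 287 (4.53%, 2.43 to 7.62), with a median of 6358 UMIs, against 1 of 3304 (0.0303%) in muscle.

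Beside the module, fibroblasts of muscle had less Cdk6 (log2 ratio −4.18) and more Myc (2.46) than the 24 fibroblasts of lung.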
